A study of Homo sapiens with 9 samples.

Results

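The 10 genes described here encode the AP-1 and early growth response factors of KGN cells: JUN, JUNB and JUND, FOS, FOSB, FOSL1 and FOSL2, ATF3, EGR1 and IER2. They were taken by symbol from a count table of 15983 genes, and all 10 were found and passed the filter on low counts, which kept 12665 genes. The set was chosen by the values of JUNB, which stood higher at the lower insulin dose only, so the values of JUNB in every comparison, and those of all 10 genes in the comparison of the lower dose with control, are a description and carry no test.

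KGN cells derive from a human granulosa cell tumour and serve as a model of the ovarian granulosa cell, though 1 line cannot stand for granulosa cells at large. Cells labelled wild type were maintained in DMEM with serum, fasted for 12 h and then kept for 72 h with solvent (control, 3 libraries), with insulin at 0.5 µg/ml (lower dose, 3 libraries) or with insulin at 1 µg/ml (higher dose, 3 libraries). Total RNA was sequenced, and library totals ran from 18965722 to 20446405 counts. The study asked how these cells respond to a high concentration of insulin. Whether libraries of 1 group were separate cultures is not labelled. The p-values therefore cover only library-to-library spread, which may be technical. Of 10 granulosa markers 9 were tested, among them FOXL2 at 26.2 ± 2.02 and FSHR at 18.1 ± 2.43 CPM (counts scaled to library size, with SD, n = 9). INHA was low at 0.655 ± 0.266 CPM, and AMHR2, at 0.19 ± 0.101 CPM, was not tested (SD, n = 9). None of the 4 listed theca and Leydig cell markers was tested. All 4 fibroblast markers were, from DCN at 1.52 ± 0.185 to COL1A1 at 9020 ± 589 CPM (SD, n = 9). Tested too were 2 of 4 endothelial markers, with KDR at 18.3 ± 1.29 CPM (SD, n = 9). The same held for 2 of 5 blood and immune markers, with CD68 at 58.1 ± 3.60 CPM (SD, n = 9). Of the 6 epithelial markers 5 were tested. EPCAM had 7 counts over all libraries and was not, while the keratin gene KRT18 reached 1760 ± 82.8 CPM (SD, n = 9). In bulk RNA, fewer cells of a type and less RNA per cell cannot be told apart.

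AP-1 is a dimer of basic leucine zipper (bZIP) proteins. JUN proteins pair with each other or with FOS proteins, and FOS proteins need a JUN partner to bind DNA. Growth factors, insulin among them, reach these genes through the RAS and ERK kinases, which act on ternary complex factors and SRF at the promoters of FOS and EGR1. FOS, EGR1 and IER2 are immediate early genes, whose transcripts peak soon after a stimulus and then decay, while FOSL1 (FRA-1) and FOSL2 (FRA-2) can remain raised in dividing or transformed cells. ATF3 is a stress-induced bZIP factor, EGR1 a zinc finger factor, and IER2 a small nuclear protein of the immediate early class. In granulosa cells, gonadotrophins and growth factors induce several of these genes around ovulation.

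The sequence upstream of a transcription start can carry elements that act on the gene, and 4 such stretches are printed. Elements farther away lie outside them, and whether the annotated starts are those used in these cells was not tested. They hold 1 of the 2 elements marked below or belong to JUNB, the gene on which the set was picked. The stretch of JUND, which holds TGACGTCA, is not printed. Each is the 250 bases before the start in RefSeq (GRCh38.p14), written 5′ to 3′ on the strand of the gene. Capitals mark a CArG box, the element bound by SRF, or the sequence TGACATCA, a variant of the AP-1 and CRE elements. JUNB lies at chr19:12791236-12791485 (plus strand), JUN at chr1:58784048-58784297 (minus strand), EGR1 at chr5:138465229-138465478 (plus strand) and the first annotated ATF3 start at chr1:212565157-212565406 (plus strand).
JUNB: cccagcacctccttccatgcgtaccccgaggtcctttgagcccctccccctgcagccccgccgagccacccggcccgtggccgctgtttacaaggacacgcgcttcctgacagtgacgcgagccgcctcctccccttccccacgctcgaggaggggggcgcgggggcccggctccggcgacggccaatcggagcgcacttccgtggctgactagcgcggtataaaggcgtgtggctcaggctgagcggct
JUN: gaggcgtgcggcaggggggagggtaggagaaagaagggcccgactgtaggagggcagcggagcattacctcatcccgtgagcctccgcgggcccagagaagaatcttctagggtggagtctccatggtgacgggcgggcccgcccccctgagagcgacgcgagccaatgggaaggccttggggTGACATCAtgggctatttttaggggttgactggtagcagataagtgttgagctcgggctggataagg
EGR1: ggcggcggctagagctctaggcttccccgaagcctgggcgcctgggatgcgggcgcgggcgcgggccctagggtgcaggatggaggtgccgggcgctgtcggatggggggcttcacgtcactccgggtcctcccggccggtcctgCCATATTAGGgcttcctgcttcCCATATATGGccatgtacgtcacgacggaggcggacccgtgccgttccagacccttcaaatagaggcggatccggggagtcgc
ATF3: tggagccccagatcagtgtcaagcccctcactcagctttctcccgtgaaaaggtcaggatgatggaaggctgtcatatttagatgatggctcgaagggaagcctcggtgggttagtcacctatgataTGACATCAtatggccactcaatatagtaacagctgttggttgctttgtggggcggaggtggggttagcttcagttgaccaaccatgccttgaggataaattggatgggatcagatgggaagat

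Of the 10 genes, 9 matched a RefSeq promoter, ATF3 with a pair of start sites, and FOSL1 did not. Each motif was looked for on both strands of the 250 bases. EGR1 held the CArG box in 2 places, from -105 to -96 and from -83 to -74 relative to the start, and no other window of the 10 held it. Bases farther upstream were not searched, so a CArG box there, at FOS or another gene, would be missed. A CArG box was present in 1.16% of all 35116 promoter windows. JUND held the full CRE, TGACGTCA, found in 1.65% of all windows, and JUN and the first ATF3 start held TGACATCA, from -67 to -60 and from -123 to -116, found in 2.37%. The AP-1 element TGANTCA, present in 6.57% of all windows, was in none of the 10. TATAAA, present in 6.80% of all windows, was in the windows of JUNB, FOS and FOSB close to the start. The second ATF3 window held it far from the start, from -230 to -225. The shorter TGACG, which TGACGTCA contains, was in 8 of 10 windows, in 21.2% of all windows and in 27.1% of the windows of tested genes. These are matches of letters within a fixed window, and no binding was measured here.

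Most AP-1 transcript came from JUND, FOSL1, JUN and FOSL2, while FOS and FOSB were scarce. Levels between genes are given per length, as FPKM over the 9 libraries. JUND was the most abundant, at 106 ± 6.25 FPKM, followed by FOSL1 at 72.6 ± 5.60, JUN at 61.2 ± 2.56, FOSL2 at 40.3 ± 1.43 and JUNB at 27.2 ± 2.26 FPKM (SD, n = 9). IER2 was measured at 13.0 ± 1.18, EGR1 at 7.68 ± 1.08 and ATF3 at 4.60 ± 0.411 FPKM (SD, n = 9). FOS, the founding member of its family, was measured at 0.897 ± 0.155 FPKM and FOSB at 0.296 ± 0.0517 FPKM (SD, n = 9). JUND stood at the 96.1 percentile of mean FPKM over the tested genes, FOS at the 13.7 and FOSB at the 5.67 percentile.

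**Figure D1:**
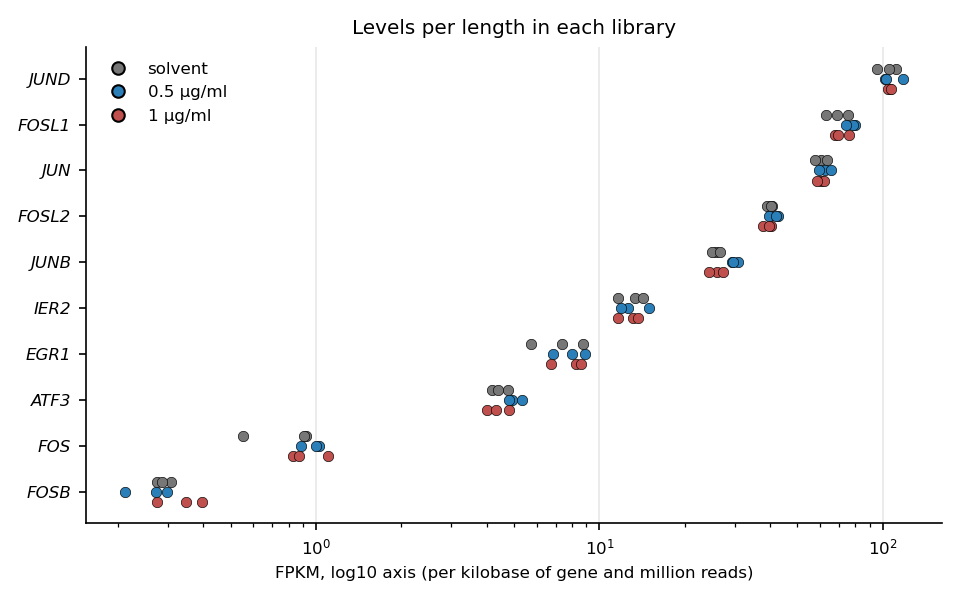
FPKM of each gene on a log10 axis, 1 point per library, with solvent control in grey, 0.5 µg/ml insulin in blue and 1 µg/ml in red. JUND lies at the top between 95.6 and 118 FPKM and FOSB at the bottom between 0.211 and 0.396 FPKM, and the groups lie close together for every gene.

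The ranges of neighbours in this order overlapped in 1 case only. FOSL1 ran from 62.9 to 80.1 FPKM and JUN from 57.5 to 65.5 FPKM, yet FOSL1 was the higher of the pair in all 9 libraries. Within the JUN family, JUND made up 54.5 ± 1.57% of the summed FPKM, JUN 31.5 ± 1.22% and JUNB 14.0 ± 0.929% (SD, n = 9). Within the FOS family, FOSL1 made up 63.6 ± 1.82%, FOSL2 35.4 ± 1.83%, FOS 0.786 ± 0.122% and FOSB 0.261 ± 0.0526% (SD, n = 9). The order of the 10 genes thus set FOSL1 and FOSL2 far above FOS and FOSB at every dose.

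The genes also differed in how far libraries lay apart. The CPM of FOSL2 varied by 3.74% over the 9 libraries (coefficient of variation, where counting error alone gives 1.19%), that of JUN by 4.37% (1.59%) and that of EGR1 by 14.1% (4.55%). FOS varied by 17.3% and FOSB by 17.2%, where counting error alone gives 16.3% and 21.2%, since FOS had 340 counts and FOSB 201 counts over all libraries. For FOS and FOSB the spread was therefore about that of counting, and differences between groups were not detectable at this depth unless large. FOS had 22 counts in control 1, its lowest value, and between 35 and 46 in the other 8 libraries.

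The comparison of the lower dose with control asks what 0.5 µg/ml insulin does, and it is the one on which the set was picked. JUNB, a JUN protein that activates weakly and can oppose JUN, was measured at 57.1, 53.9 and 54.3 CPM at the lower dose and at 47.3, 45.6 and 48.6 CPM in control. The lowest lower-dose library lay above the highest control library. ATF3 was measured at 14.2, 13.8 and 15.3 CPM at the lower dose and at 13.6, 11.9 and 12.5 CPM in control, where the lowest lower-dose value and the highest control value were close to each other. FOSL1, which pairs with JUN proteins and is linked to invasive growth, was measured at 138, 134 and 127 CPM at the lower dose and at 117, 128 and 107 CPM in control, with overlap between control 2 and lower dose 3.

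The fitted log2 fold change at the lower dose was 0.22 ± 0.06 for JUNB, 0.19 ± 0.10 for ATF3 and 0.18 ± 0.06 for FOSL1 (edgeR, SE). For FOSL1 it was 0.25 without control 2 and 0.11 without control 3. For EGR1 it was 0.12 ± 0.12 (SE), at 21.7, 25.1 and 28.0 CPM with insulin and 18.0, 27.5 and 23.0 CPM in control, and it was -0.02 without control 1 and 0.28 without control 2. JUN was measured at 206, 214 and 196 CPM at the lower dose, JUND at 230, 197 and 201 CPM and FOSL2 at 352, 375 and 370 CPM, all overlapping control. For these 3 abundant genes the log2 fold change lay at 0.06 each, with SEs of 0.05, 0.06 and 0.04. For JUND it was -0.01 without lower dose 1, the library that held its highest value of 230 CPM. IER2 stood at 0.02 ± 0.09, FOS at 0.29 ± 0.25 and FOSB at -0.14 ± 0.29 (SE). With single libraries left out, IER2 was -0.08 without lower dose 1 and -0.06 without control 3, FOS was 0.10 without control 1, and FOSB ranged from -0.25 without lower dose 3 to -0.01 without lower dose 1. In all, 9 of the 10 genes lay above 0 (median 0.09 on the log2 scale), beside 51.9% of all 12665 genes above 0 and a median of 0.00447. The count was 7 without lower dose 1, 8 without control 1 and 8 without control 3, and the median was 0.05 without control 1. Groups did not overlap for 2 of the 10 genes, JUNB and ATF3, beside 10.7% of all genes (5.1% higher and 5.61% lower at the lower dose). No gene of the 12665 was called at a Benjamini-Hochberg adjusted p under 0.05 by edgeR's quasi-likelihood test (0%), while 770 (6.08%; 2.87% higher and 3.21% lower) had an unadjusted p under 0.05. By DESeq2 0 genes were called and 562 had an unadjusted p under 0.05. Since this contrast served to pick the set, nothing is read from these counts.

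**Figure D2:**
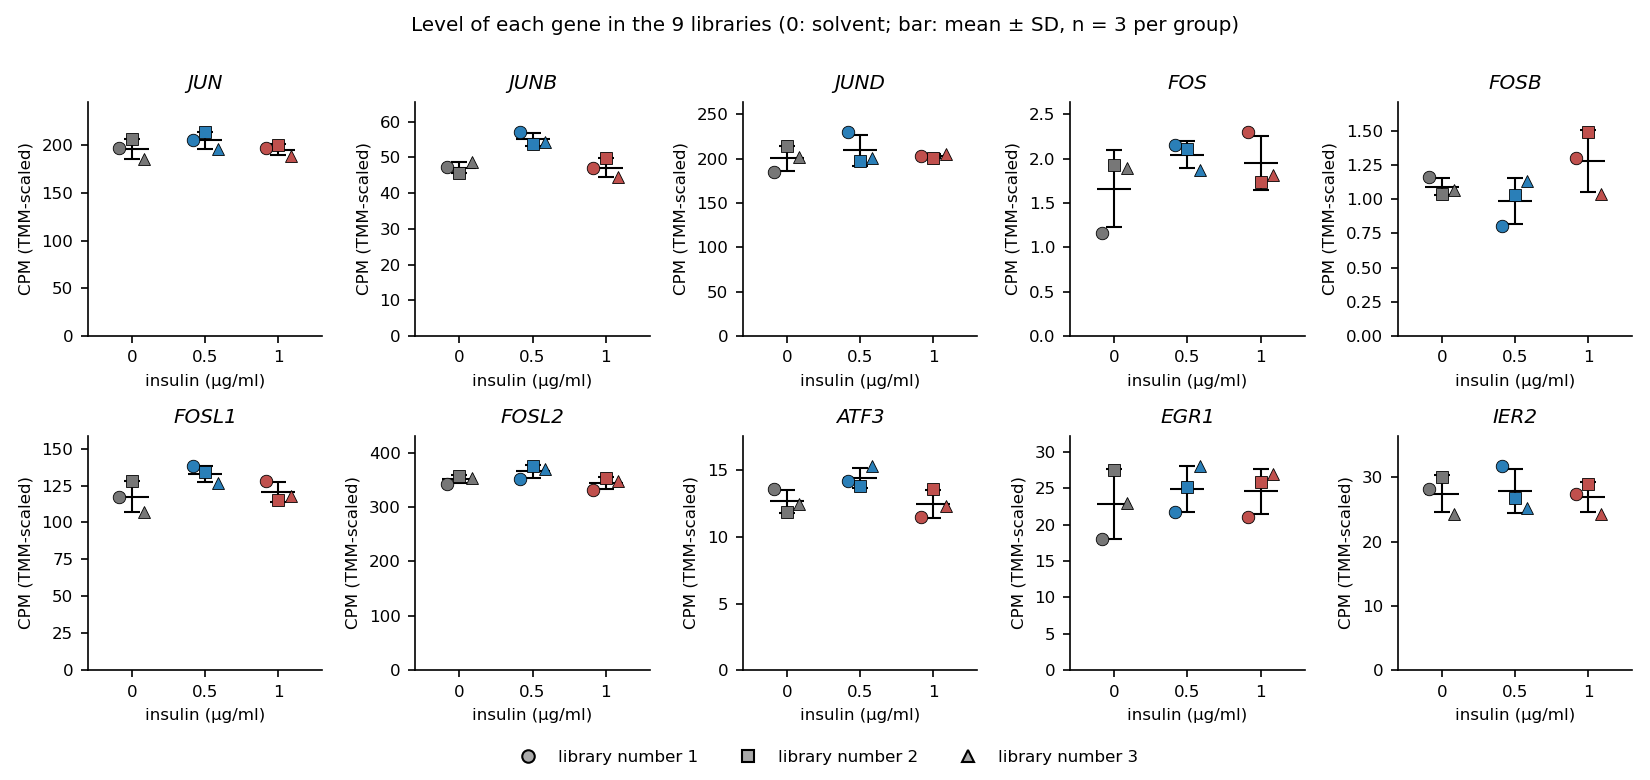
TMM-scaled CPM of each gene in the 9 libraries against insulin in µg/ml (0 is solvent), with the library number of each group as the marker and the mean ± SD as a bar. JUNB lies between 53.9 and 57.1 CPM at 0.5 µg/ml and between 44.5 and 49.8 CPM in the other 6 libraries, and EGR1 has its lowest value in library number 1 of every group.

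JUNB shares its place with another gene. It is a single-exon gene on the plus strand of chromosome 19, from 12791496 to 12793315 (hg38, GENCODE 29), inside HOOK2, which runs on the opposite strand and encodes a microtubule linker protein. Of the 1820 exon bases of JUNB, 259 (14.2%) are also exon of HOOK2, and the strand setting of the counting is not given in the sources used here. HOOK2 was measured at 19.7 ± 0.696 CPM at the lower dose and 19.5 ± 0.195 CPM in control (SD, n = 3 each), a log2 fold change of 0.02 ± 0.08 (SE). IER2 (chromosome 19, 13150415 to 13154908, plus strand) shares 30.8% of its exon bases with AC011446.2 on the opposite strand. Unlike HOOK2, AC011446.2 has no counts of its own here. Of the longest FOSL1 transcript, 15.3% recurs in the pseudogene FOSL1P1. Reads from such shared stretches cannot be assigned with certainty.

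The comparison of the higher dose with control asks what 1 µg/ml insulin does. None of the 9 genes other than JUNB passed the test, and the fitted fold changes lay near 1 for the abundant genes. JUN was measured at 197, 201 and 189 CPM at the higher dose and at 197, 207 and 186 CPM in control. JUND was measured at 203, 201 and 205 CPM at the higher dose, a narrow range, and at 185, 214 and 202 CPM in control. FOSL2 was measured at 332, 353 and 348 CPM at the higher dose and at 343, 358 and 353 CPM in control. The groups of all 3 genes overlapped.

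At the higher dose the log2 fold change was -0.01 ± 0.05 for JUN, 0.02 ± 0.06 for JUND, -0.03 ± 0.04 for FOSL2 and 0.04 ± 0.06 for FOSL1 (SE). The 95% interval ran from 0.925- to 1.07-fold for JUN, from 0.929- to 1.10-fold for JUND, from 0.918- to 1.05-fold for FOSL2 and from 0.939- to 1.12-fold for FOSL1. ATF3 stood at -0.03 ± 0.10 and IER2 at -0.03 ± 0.09 (SE). EGR1 stood at 0.10 ± 0.12 (SE), with 21.0, 25.8 and 26.9 CPM at the higher dose, and moved to -0.04 without control 1, whose 18.0 CPM was its lowest value of all. FOS was measured at 2.30, 1.74 and 1.82 CPM at the higher dose and 1.16, 1.93 and 1.90 CPM in control, with an interval from 0.818- to 1.67-fold. FOSB, a FOS protein best known from neurons, was measured at 1.30, 1.49 and 1.04 CPM at the higher dose and 1.16, 1.04 and 1.07 CPM in control, with an interval from 0.781- to 1.75-fold. In edgeR with Benjamini-Hochberg adjustment over 12665 genes, the adjusted p of all 9 was 1.00, and 0 of them had an unadjusted p under 0.05, beside 298 of 12665 genes (2.35%; 1.09% higher and 1.26% lower). No gene at all was called in this comparison (0%). By DESeq2 0 genes were called and 172 had an unadjusted p under 0.05.

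JUNB, given as a description, was measured at 47.1, 49.8 and 44.5 CPM at the higher dose, a range that takes in all 3 control values. Its log2 fold change against control was -0.000618 ± 0.06 (SE), with a 95% interval from 0.914- to 1.09-fold. Groups overlapped for all 10 genes at the higher dose, beside 7.73% of all genes whose groups did not overlap (3.81% higher and 3.92% lower at the higher dose).

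**Figure D3:**
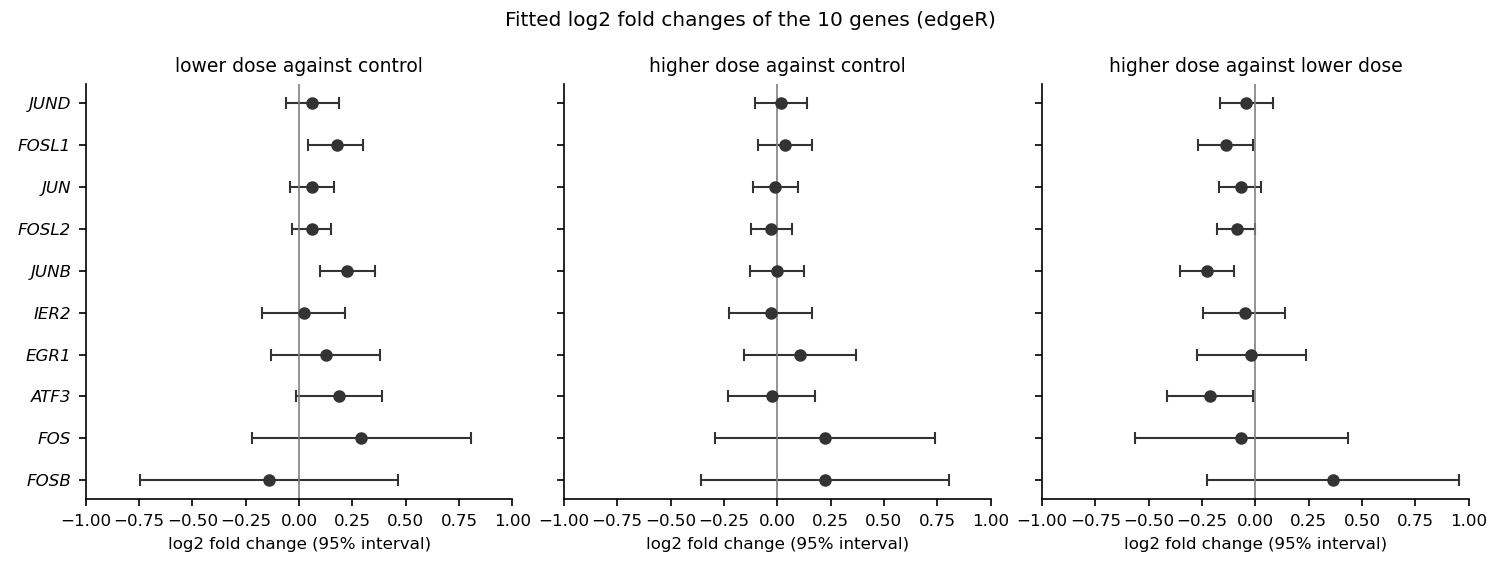
Fitted log2 fold change (point) and 95% interval (bar) of each gene in the 3 comparisons, from edgeR over all 9 libraries, with genes ordered by FPKM. At the lower dose 9 of 10 points lie right of 0, between doses 9 of 10 lie left of 0, and the bars of FOS and FOSB are the widest.

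The comparison of the higher dose with the lower dose asks whether the doses differ, and it shares the lower-dose libraries with the comparison above. FOSL1 was measured at 128, 115 and 118 CPM at the higher dose and at 138, 134 and 127 CPM at the lower dose, a log2 fold change of -0.14 ± 0.06 (SE). ATF3 was measured at 11.5, 13.6 and 12.3 CPM at the higher dose and at 14.2, 13.8 and 15.3 CPM at the lower dose, with no overlap and a log2 fold change of -0.21 ± 0.10 (SE). Both had an unadjusted p under 0.05, of 0.0344 for FOSL1 and 0.0392 for ATF3, but after Benjamini-Hochberg adjustment both stood at 0.850 (adjusted p, edgeR), so neither passed. Genes with an unadjusted p under 0.05 and a negative log2 fold change made up 3.19% of all genes tested, and those with a positive one 2.45%.

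FOSL2 stood at -0.09 ± 0.04 and JUN at -0.07 ± 0.05 (SE), with intervals from 0.882- to 1.00-fold and from 0.887- to 1.02-fold. JUND, EGR1, IER2 and FOS stood between -0.07 and -0.02, and FOSB stood at 0.36 ± 0.28 (SE). JUNB, as a description, stood at -0.23 ± 0.06 (SE). Of the 10 genes 9 lay below 0, with a median of -0.07, beside 49.5% of all genes above 0 and a median of -0.00116. Without lower dose 1, 3 of the 10 lay above 0, the median was -0.11 without lower dose 3, and it was -0.04 by limma on log2(FPKM + 1). Groups did not overlap for JUNB and ATF3, beside 12.2% of all genes (5.85% higher and 6.31% lower at the higher dose). None of the 12665 genes was called (0%), while 714 (5.64%) had an unadjusted p under 0.05. By DESeq2 0 genes were called and 489 had an unadjusted p under 0.05.

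Pairs of the 10 genes were compared between libraries. All 45 pairs were compared on log2 CPM over the 9 libraries with an exact permutation test, two-sided, adjusted over the 45 pairs, and 0 pairs passed, with 3 at an unadjusted p under 0.05. Of the pairs 33 had an r above 0, with a median of 0.224, while of pairs of every 5th tested gene 50% had an r above 0, with a median of -0.000497. Whether the 10 genes vary together as a set was not tested. JUNB and ATF3, given as a description since the set was chosen by JUNB, had the highest r, 0.791 (Spearman rho 0.900, n = 9). Their r was 0.661 without the 2 libraries farthest from the median of JUNB and 0.414 on deviations from group means. The pooled value includes the group difference by which the set was chosen.

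JUN and FOSL1, which form a dimer, came next at 0.777 (exact permutation p = 0.0141, adjusted p = 0.317; rho 0.617, exact permutation p = 0.0857, adjusted p = 0.772; n = 9). Their r was 0.711 on deviations from group means, 0.904 on deviations from the means of each library number and 0.555 without the 2 farthest libraries. JUN and IER2 had 0.678 (exact permutation p = 0.0455, adjusted p = 0.577; rho 0.733, exact permutation p = 0.0311, adjusted p = 0.467; n = 9). Their r was 0.718 on deviations from group means and 0.930 without the 2 farthest libraries, but 0.248 on deviations from the means of each library number. EGR1 and FOSL2 had 0.609 (exact permutation p = 0.0841, adjusted p = 0.577; rho 0.683, exact permutation p = 0.0503, adjusted p = 0.566; n = 9). Their r was 0.818 on deviations from group means and 0.680 without the 2 farthest libraries, but 0.103 on deviations from the means of each library number, so that this relation did not hold within library numbers. EGR1 and FOS, the classical pair of SRF targets, had 0.403 (exact permutation p = 0.277, adjusted p = 0.733; rho -0.167, exact permutation p = 0.678, adjusted p = 0.910; n = 9), and -0.583 without the 2 farthest libraries, so that this value rests on those libraries.

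**Figure D4:**
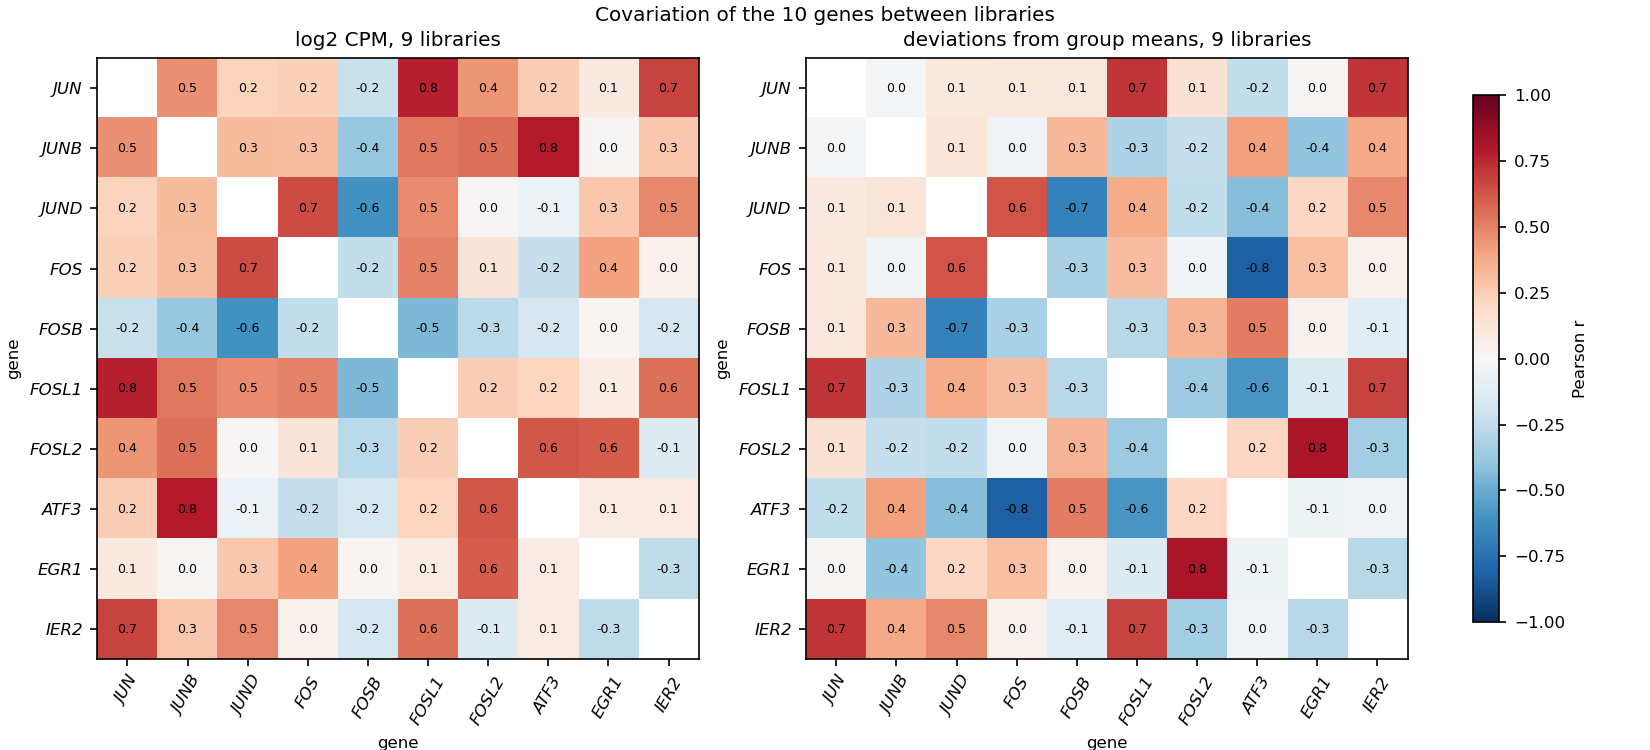
Pearson r between the 10 genes over the 9 libraries, on log2 CPM at the left and on deviations from group means at the right, from -1 (blue) to 1 (red). JUNB and ATF3 have 0.791 at the left and 0.414 at the right, and FOSL2 and EGR1 have 0.609 at the left and 0.818 at the right.

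Some of the 10 genes were lowest under the same library number of the labels in every group. EGR1 and FOSL2 were lowest in library number 1 of every group, EGR1 at 18.0 CPM in control, 21.7 at the lower dose and 21.0 at the higher dose. FOSL2 stood there at 343 CPM in control, 352 at the lower dose and 332 at the higher dose. JUN and IER2 were lowest in number 3 of every group, JUN at 186 CPM in control, 196 at the lower dose and 189 at the higher dose. IER2 stood there at 24.3 CPM in control, 25.2 at the lower dose and 24.3 at the higher dose. These 4 of the 10 genes had their lowest value under the same number in all 3 groups, beside 14.7% of the 12665 tested genes. JUN and FOSL2 also had their highest under the same number, 20% of the 10 genes and near the 14.8% of all tested genes. The labels do not say what the numbers stand for, and their part in the results was not tested beyond the fit with the number as a block and the pair values within numbers.

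The genes outside the set whose log2 CPM was most like that of JUNB over the 9 libraries, among 9484 genes of at least 10 CPM, were CYFIP1 (Pearson r 0.932, rho 0.933), GSTT2B (0.929, 0.950), FBRS (0.928, 0.867), ARPIN (0.920, 0.933) and GRHPR (0.917, 0.833). CYFIP1 and ARPIN encode an activating and an inhibiting arm of actin branching, and GSTT2B a glutathione transferase with a near-identical copy, so that its counts are uncertain. These values include the lower-dose difference by which the set was chosen, and on deviations from group means r was 0.592 for CYFIP1, 0.790 for GSTT2B, 0.552 for FBRS, 0.713 for ARPIN and 0.740 for GRHPR. For EGR1 they were ZEB2 (r 0.946, rho 0.917), DCP1B (0.930, 0.800), DCTN4 (0.929, 0.733), FTH1 (0.918, 0.917) and HRH1 (0.908, 0.933). ZEB2 encodes a zinc finger repressor, and FTH1 ferritin heavy chain, which has many pseudogene copies. These are the highest of many values and carry no test.

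The rest of the pathway was expressed, and none of its genes passed the test in any of the 3 comparisons (edgeR quasi-likelihood, Benjamini-Hochberg). Beside the list counts below, 51.9% of all tested genes lay above 0 at the lower dose, 49.8% at the higher dose and 49.5% between doses. All 30 listed genes of the MAPK relay, from receptor adaptors to partners of SRF, were tested. SRF itself was counted among the other immediate early genes. Median log2 fold changes of the relay were -0.00259 at the lower dose, -0.01 at the higher dose and -0.02 between doses. The adaptor SHC1 was measured at 73.8 ± 3.18 FPKM, the kinase of ERK, MAP2K2 (MEK2), at 65.2 ± 4.32 and the p38 substrate kinase MAPKAPK2 at 42.4 ± 1.60 FPKM (SD, n = 9). MAP3K1, upstream of JNK, was measured at 40.9 ± 1.74 CPM at the higher dose and 36.1 ± 0.618 CPM at the lower dose (SD, n = 3 each; log2 fold change 0.18 ± 0.07, SE; adjusted p = 0.850, edgeR). RPS6KA4, a kinase of histone H3 at immediate early genes, was measured at 61.0 ± 4.59 CPM at the lower dose and 54.1 ± 6.80 CPM in control (SD, n = 3 each). RPS6KA3 went the other way at 106 ± 6.63 CPM at the lower dose and 115 ± 5.12 CPM in control (SD, n = 3 each). Each had an adjusted p of 0.792 (edgeR).

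ERK feedback inhibitors were tested in 16 of 17 cases, with 10 above 0 at the lower dose, 7 at the higher dose and 5 between doses. DUSP1, a phosphatase of MAP kinases and itself an immediate early gene, was the most abundant at 79.5 ± 4.84 FPKM (SD, n = 9). It was measured at 159 ± 9.56 CPM at the higher dose and 160 ± 4.91 CPM in control, and at 161 ± 17.0 CPM at the lower dose (SD, n = 3 each). SPRY4, an inhibitor of RAS to ERK signalling, was measured at 21.1 ± 2.13 CPM at the lower dose and 18.4 ± 1.51 CPM in control, and at 20.8 ± 1.39 CPM at the higher dose (SD, n = 3 each). SPRED1, of the same kind, went the other way at 33.2 ± 0.967 CPM at the lower dose and 36.6 ± 2.28 CPM in control (SD, n = 3 each).

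Other immediate early genes were tested in 36 of 39 cases. Of these 24 lay above 0 at the lower dose, with a median log2 fold change of 0.02, 11 at the higher dose, with a median of -0.04, and 9 between doses, with a median of -0.07. The matricellular genes CCN2 and CCN1, known as targets of SRF and YAP, were the most abundant, at 728 ± 28.5 and 521 ± 28.6 FPKM (SD, n = 9). RHOB, a small GTPase, was measured at 229 ± 11.1 CPM at the lower dose and 206 ± 17.3 CPM in control (SD, n = 3 each; log2 fold change 0.15 ± 0.06, SE). KLF4, a zinc finger factor, was measured at 9.14 ± 0.800 CPM at the higher dose and 11.8 ± 1.64 CPM at the lower dose, and KLF2, its close relative, at 87.2 ± 8.80 CPM at the higher dose and 104 ± 11.7 CPM at the lower dose (SD, n = 3 each). Both had an adjusted p of 0.850 (edgeR). ZFP36, which directs the decay of AU-rich transcripts, was measured at 9.13 ± 0.590 CPM at the higher dose and 11.2 ± 2.16 CPM in control (SD, n = 3 each).

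The other early growth response genes were scarce, at 1.16 ± 0.478 CPM for EGR2 and 0.656 ± 0.284 CPM for EGR3 (SD, n = 9; these genes were chosen after their values were seen). NAB1 and NAB2, the corepressors of EGR proteins, were measured at 8.46 ± 0.372 and 8.19 ± 0.511 FPKM, close to the 7.68 ± 1.08 FPKM of EGR1 (SD, n = 9).

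Among other bZIP genes, 24 of 26 were tested, with 13 above 0 at the lower dose, 9 at the higher dose and 8 between doses. NFE2L1 was the most abundant at 138 ± 6.12 FPKM, followed by DDIT3 at 65.1 ± 7.19 and CEBPB at 51.0 ± 3.08 FPKM (SD, n = 9). CEBPB, a factor that granulosa cells induce at ovulation, was measured at 114 ± 6.78 CPM at the lower dose and 105 ± 5.31 CPM in control, and at 104 ± 4.66 CPM at the higher dose (SD, n = 3 each). MAFK, a small MAF protein, was measured at 45.3 ± 3.20 CPM at the higher dose and 52.6 ± 3.43 CPM at the lower dose (SD, n = 3 each). These groups did not overlap, beside 12.2% of all genes, with a log2 fold change of -0.22 ± 0.08 (SE) and an adjusted p of 0.850 (edgeR).

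Known target genes of AP-1 and EGR1 were tested in 27 of 32 cases. At the lower dose 21 lay above 0, with a median of 0.06, at the higher dose 10, with a median of -0.02, and between doses 5, with a median of -0.08. With each gene centred on its own mean, the mean log2 CPM of the list was 0.00582, 0.0256 and -0.0844 in the control libraries. It was 0.0149, 0.0666 and 0.0282 at the lower dose and 0.0253, -0.0136 and -0.0685 at the higher dose, so the groups overlapped. A shift of the list as a whole was not tested. VIM, an intermediate filament gene, had the highest level of the list at 2090 ± 56.8 FPKM (SD, n = 9). It was measured at 4690 ± 50.4 CPM at the lower dose and 4450 ± 67.7 CPM in control (SD, n = 3 each). These groups did not overlap, beside 10.7% of all genes, with a log2 fold change of 0.08 ± 0.04 (SE) and an adjusted p of 0.807 (edgeR). VEGFA, a growth factor of blood vessels, was measured at 199 ± 17.3 CPM at the higher dose and 227 ± 11.1 CPM at the lower dose (SD, n = 3 each). SPP1, osteopontin, went the other way at 9.76 ± 1.23 CPM at the higher dose and 6.84 ± 0.961 CPM at the lower dose (SD, n = 3 each), with a log2 fold change of 0.51 ± 0.16 (SE) and an adjusted p of 0.850 (edgeR). The integrin gene ITGAV was measured at 424 ± 15.1 CPM at the lower dose and 463 ± 17.1 CPM in control (SD, n = 3 each).

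Heat shock genes, which together with immediate early genes can respond to handling, were tested in 14 of 15 cases, with 6 above 0 at the lower dose, 9 at the higher dose and 8 between doses. Their summed level ran from 4438 to 4599 CPM at the lower dose, from 4490 to 4548 CPM at the higher dose and from 4433 to 4607 CPM in control. HSPB1 was measured at 543 ± 41.8 CPM at the lower dose and 503 ± 18.5 CPM in control (SD, n = 3 each). The inducible HSPA1A, whose near-identical copy HSPA1B makes its count uncertain, was measured at 0.870 ± 0.108 CPM at the lower dose and 1.20 ± 0.226 CPM in control (SD). Much of the summed level came from HSPA8, at 1310 ± 27.9 CPM, and HSP90AB1, at 1150 ± 67.2 CPM, at the lower dose (SD, n = 3 each). Whether handling had a part in the values was not tested.

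**Figure D5:**
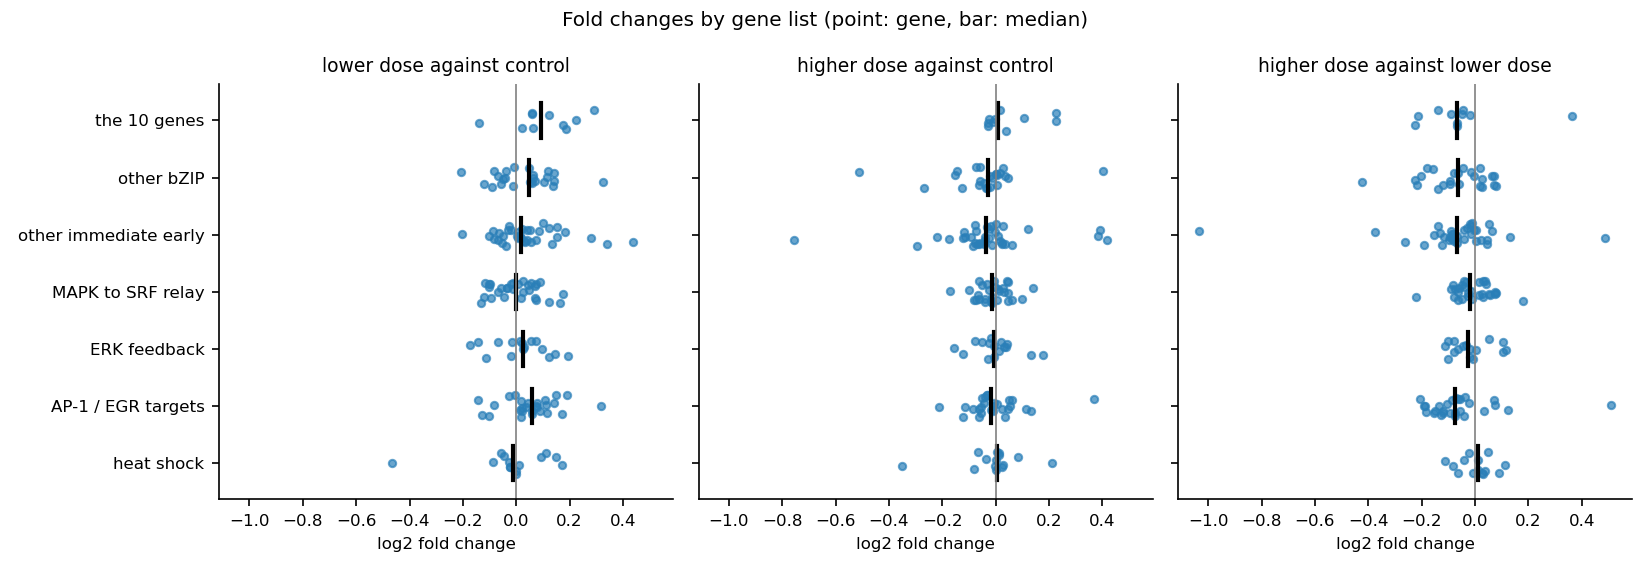
Fitted log2 fold change of each tested gene (point) and the median (bar) for the 10 genes and 6 related lists in the 3 comparisons. The AP-1 and EGR targets have a median of 0.06 at the lower dose, -0.02 at the higher dose and -0.08 between doses, and the heat shock genes have -0.01, 0.00378 and 0.01.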

How the data were processed

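RNA sequencing of 9 KGN libraries was analysed from 2 tables. The authors deposited raw read counts per gene symbol, and an FPKM table that divides the same counts by gene length and library total. Per the submitters' processing notes, Trimmomatic, HTSeq, DESeq and the build hg38 were used, without versions. No source used here gives the aligner, annotation or strand setting.

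In edgeR 4.0.16, low-count genes were removed by filterByExpr (minimum count 10, minimum total 15) and the rest scaled by TMM and fitted over all 9 libraries. Comparisons used the two-sided quasi-likelihood F-test with Benjamini-Hochberg adjustment over 12665 genes and a threshold of 0.05. SEs are the size of each log2 fold change over √F. A zero at the smallest library total allows up to 3 counts, or 0.158 CPM, for counting error only. Pairs of genes were compared on log2 CPM (prior count 2) over all 362880 orders of the libraries. Each library was counted as a sample. Libraries of 1 group differed by more than sampling noise (chi-square per degree of freedom 2.17 to 8.19), which does not show that they were separate cultures. Positions came from GENCODE 29 and promoters from RefSeq (GRCh38.p14). The fits and the pair test were tested on simulated data. With many genes changed at once, the fits recovered 54.7% to 60.3% of genes changed 1.25-fold and 95.9% to 98.5% of those changed 2-fold. Smaller changes were not simulated, so a count of 0 called genes does not show that no gene changed.

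The genes, lists and rules were chosen with earlier results of these data known. Beside the 10 genes, the text names in each list the 2 genes of smallest p per comparison and the 3 of highest FPKM, or a part of these, and the 5 genes most like JUNB and EGR1. Alternatives were DESeq2 1.42.0, RLE scaling, other count filters, fits of 2 groups, the replicate number as a block, limma 3.58.1 on log2(FPKM + 0.1) or log2(FPKM + 1), and leaving out each library.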

Additional observations from a re-analysis of the deposited data

How the results depend on the processing

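The number of genes called at an adjusted p under 0.05 was 0 in each comparison under DESeq2, RLE scaling, a filter of 1 CPM in 3 libraries, fits of the 2 compared groups alone, limma on either FPKM scale, and the replicate number as a block. With no filter on low counts edgeR called 6 genes at the lower dose against control, 3 at the higher dose against control and 4 between doses, none of them among the 10 genes. Leaving out a library gave 0 to 1 at the lower dose (1 without lower dose 3, LOC107987373), 0 throughout at the higher dose and 0 to 2 between doses (2 without lower dose 1, NDRG1 and TRIM22, and 1 without lower dose 3, LOC107987373). Same-numbered libraries deviated together with r over 0.1 in 1 of 9 pairs (r from -0.0117 to 0.161). Pairs of different number had r from -0.111 to 0.0572, and 7 of 9 libraries correlated best with a library of their own number. This check does not settle whether the numbers pair the libraries. With the block, 0 genes were called in each comparison and 0 pairs of the 10 genes passed. Genes with an unadjusted p under 0.05 (edgeR) then numbered 971 at the lower dose, 343 at the higher dose and 891 between doses. Without the block they numbered 770, 298 and 714.

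The pair count was 0 in all alternatives and ran from 0 to 1 with a library left out, the 1 being JUN with IER2 without lower dose 2 (r = 0.938, exact permutation p = 0.000595, adjusted p = 0.0268, n = 8). The log2 fold change of JUNB at the lower dose ran from 0.20 to 0.25 with a library left out and from 0.21 to 0.22 under the other alternatives. Between doses it ran from -0.27 to -0.18 and from -0.23 to -0.21. These JUNB ranges reuse the values by which the set was chosen, so they are a description and no support for a difference. Of the tested fold changes none turned sign under the other alternatives, while small ones did with a library left out. At the higher dose against control the ranges were -0.10 to 0.030 for ATF3, -0.037 to 0.26 for EGR1, -0.027 to 0.11 for FOSL1, -0.11 to 0.041 for IER2, -0.047 to 0.030 for JUN and -0.036 to 0.069 for JUND. Between doses they were -0.11 to 0.080 for EGR1, -0.20 to 0.012 for FOS, -0.12 to 0.053 for IER2 and -0.086 to 0.031 for JUND. The cause was not tested. FOS and FOSB, with 340 and 201 counts over 9 libraries, are limited by depth.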
